A study of Mus musculus with 8 samples.

Results

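The genes described here encode 7 chemokine receptors that direct T cells to tissues, chosen by symbol: Ccr7, Ccr9, Ccr2, Ccr4, Cxcr3, Cxcr4 and Cxcr6. Of these, 6 had a row among the 11723 genes listed, and all 6 were among the 11530 genes tested. Cxcr6, the receptor for the chemokine CXCL16, had no row and was not analysed here. CD8 T cells had been isolated by flow sorting from peripheral lymph nodes of BALB/c mice, an inbred strain, at 12 days of age. Wild-type (WT) mice gave 4 RNA libraries, made from 115, 28.7, 1.3 and 1.3 M cells (M, 1e6) of 5, 5, 3 and 2 pooled mice. Mice without interleukin-2, a T cell growth factor, gave 4 libraries (IL-2-KO) from 26.7, 42.6, 1.1 and 0.4 M cells, with no pooling stated in their labels. The series' design text also allows heterozygous mice among the controls and names spleen as a second source, whereas the sample labels give WT and lymph node only.

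Chemokine receptors are G protein-coupled receptors that make a cell crawl towards the tissue where their ligand is displayed. Naive T cells carry CCR7, which reads CCL19 and CCL21 and admits them to lymph nodes. CCR9 reads CCL25 of the small intestine and the thymus, and CXCR4 reads CXCL12 of bone marrow and lymphoid stroma. CXCR3 reads the interferon-induced CXCL9, CXCL10 and CXCL11, CCR2 reads CCL2 and its relatives, and CCR4 reads CCL17 and CCL22, so that activated T cells carrying them can enter inflamed sites. CCR2 is also known from monocytes and CCR4 from regulatory T cells.

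Levels are counts per M of the TMM-scaled library size (CPM), and the libraries held 11.9 to 18.4 M counts over the listed genes. Il2, the targeted gene, stood at 5.13, 7.32, 8.42 and 4.25 CPM in IL-2-KO and 5.72, 5.65, 6.25 and 5.91 in WT, so it did not separate the groups. The exons behind such a value are not known, and Il2 does not check the labels here. Of the CD8 T cell markers 6 of 7 were listed, all but Trac, with summed levels of 5370 to 6240 CPM in WT and 4638 to 5416 in IL-2-KO. WT replicate 2 and IL-2-KO replicate 3 stood apart by markers of other cells. The 10 listed of 18 monocyte, macrophage and dendritic cell markers summed to 396 CPM in WT replicate 2 and 1137 in IL-2-KO replicate 3. They summed to 16.6 to 25.4 CPM in the remaining WT libraries and 31.9 to 68.2 in the remaining IL-2-KO ones, and Csf1r, Cd14, Adgre1, Fcgr3, Fcgr1, Flt3, Siglech and Clec9a had no row. All 7 CD4 and regulatory T cell markers were listed and summed to 103 CPM in WT replicate 2 and 249 in IL-2-KO replicate 3, against 21.9 to 28.6 and 77.3 to 83.8 in the others. Results for the receptors are therefore also given without these 2 libraries.

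Receptor genes for inflamed tissue rose in CD8 T cells lacking interleukin-2, and the gut and thymus receptor gene Ccr9 fell. Ccr2 rose 5.60-fold, Ccr4 2.88-fold and Cxcr3 1.82-fold, while Ccr9 fell by 1.10 on the log2 scale (n = 4 libraries per group). Ccr7 and Cxcr4 did not pass the test. Across all 11530 genes tested, 19.2% passed limma at an adjusted p (Benjamini-Hochberg) under 0.05. The IL-2-KO level was the higher one for 11.1% and the lower one for 8.03%. Of the 6 receptors 3 were higher and 1 was lower. All fold changes and log2 changes are on the log2(CPM + 0.5) scale, which understates changes of low genes. In bulk RNA of this kind, fewer cells of a type and less RNA per cell cannot be told apart.

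**Figure D1:**
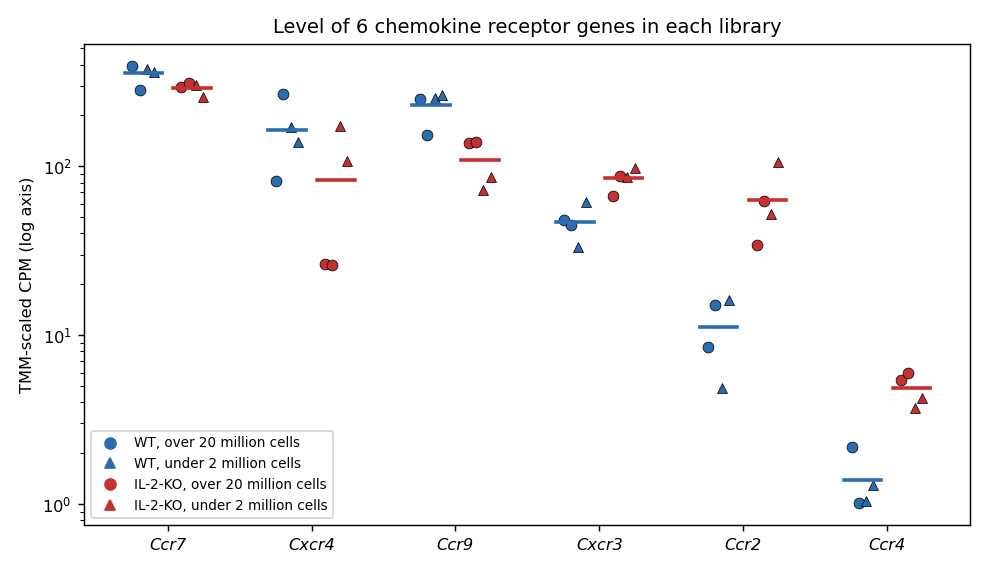
TMM-scaled CPM (log axis) of the 6 listed chemokine receptor genes in each WT (blue) and IL-2-KO (red) library, with circles for libraries of over 20 M cells, triangles for those of under 2 M, and lines at group means (n = 4). Cxcr3, Ccr2 and Ccr4 stand higher and Ccr9 lower in every IL-2-KO library, and Cxcr4 spreads from 26.2 to 173 within IL-2-KO.

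Ccr7 (Entrez 12775, GRCm38 chromosome 11, 99144199 to 99155077), the lymph node entry receptor gene, read 394, 284, 378 and 364 CPM in WT replicates 1 to 4. In IL-2-KO replicates 1 to 4 it read 297, 311, 304 and 257 CPM. The groups overlapped only through WT replicate 2, whose value lay among the IL-2-KO values. The means were 355 ± 48.7 CPM in WT and 292 ± 24.0 in IL-2-KO (SD, n = 4), a log2 change of -0.27 with a 95% confidence interval from -0.52 to -0.03. Its limma p was 0.0320 before and 0.112 after Benjamini-Hochberg adjustment. Without WT replicate 2 the log2 change was -0.38 and passed (limma adjusted p = 0.0149), and without both libraries that stood apart it was -0.40 (adjusted p = 0.0176).

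Ccr9 (Entrez 12769, GRCm38 chromosome 9, 123767211 to 123783457) read 251, 153, 253 and 263 CPM in WT. In IL-2-KO it read 137, 139, 72.5 and 86.9 CPM. Every IL-2-KO library lay under every WT library, though WT replicate 2 came close to the highest IL-2-KO value. Ccr9 went from 230 ± 51.5 to 109 ± 34.2 CPM (SD, n = 4), a log2 change of -1.10 (95% confidence interval -1.62 to -0.57, limma adjusted p = 0.00967). Without both libraries that stood apart the log2 change was -1.11 (limma adjusted p = 0.00280). The 2 IL-2-KO libraries of over 20 M cells were the higher ones. Among libraries of over 20 M cells the log2 change was -0.50 and did not pass (limma adjusted p = 0.342), and among those of under 2 M it was -1.69 and passed (adjusted p = 0.0119). The annotated span overlaps the long noncoding RNA gene Gm17021, which had no row, and no source used here gives the strand setting of the counting.

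Cxcr4 (Entrez 12767, GRCm38 chromosome 1, 128588199 to 128592299), the CXCL12 receptor gene, spread widely among replicates. It read 81.9, 267, 172 and 139 CPM in WT and 26.3, 26.2, 173 and 107 in IL-2-KO. The IL-2-KO libraries fell into a low pair, both of over 20 M cells, and a pair within the WT range, both of under 2 M. In WT, the libraries of over 20 M cells held both the lowest and the highest value. The means were 165 ± 77.5 CPM in WT and 83.0 ± 70.9 in IL-2-KO (SD, n = 4). The log2 change of -1.33 had a 95% confidence interval from -2.66 to 0.01 (limma adjusted p = 0.151). Among libraries of over 20 M cells the log2 change was -2.47 and passed (limma adjusted p = 0.0182), and among those of under 2 M it was -0.19 (adjusted p = 0.706). It also passed without IL-2-KO replicate 3, at -1.84 (limma adjusted p = 0.0382), and with array weights, at -1.75 (0.00727). Without WT replicate 2 the log2 change was -1.06 and did not pass (limma adjusted p = 0.279). Nor did it pass without both libraries that stood apart, at -1.56 (limma adjusted p = 0.0689).

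Cxcr3 (Entrez 12766, GRCm38 chromosome X, 101731535 to 101734147), the receptor gene for the interferon-induced chemokines, read 47.8, 45.0, 33.3 and 61.7 CPM in WT. In IL-2-KO it read 66.8, 87.9, 86.8 and 97.5 CPM. The groups did not overlap, and the lowest IL-2-KO value, replicate 1, lay just above the highest WT value. The mean rose from 47.0 ± 11.7 to 84.7 ± 12.9 CPM (SD, n = 4), a log2 change of 0.86 (95% confidence interval 0.47 to 1.25, limma adjusted p = 0.00736). Neither cell number class alone passed, at log2 changes of 0.72 (over 20 M, limma adjusted p = 0.0705) and 1.011 (under 2 M, 0.137), where only 2 libraries a group remain. Without both libraries that stood apart it was 0.84 and passed (limma adjusted p = 0.0318).

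Ccr2 (Entrez 12772, GRCm38 chromosome 9, 124101918 to 124109140), the receptor gene for CCL2, read 8.47, 15.1, 4.87 and 16.0 CPM in WT. In IL-2-KO it read 34.3, 62.4, 51.9 and 106 CPM. Every IL-2-KO library lay above every WT library, and replicate 4 was the highest of both groups. The mean rose from 11.1 ± 5.36 to 63.5 ± 30.3 CPM (SD, n = 4), a log2 change of 2.48 (95% confidence interval 1.60 to 3.37, limma adjusted p = 0.00200). The libraries with the most monocyte and dendritic cell transcript did not hold the highest Ccr2 of their group: WT replicate 2 was below replicate 4 in WT, and IL-2-KO replicate 3 was below replicates 2 and 4 in IL-2-KO. Without these 2 libraries the log2 change was 2.73 (limma adjusted p = 0.00522). These markers also summed to more in the remaining IL-2-KO libraries than in the remaining WT ones, and the part of such cells in the Ccr2 result was not tested. The recovered reads of Ccr2 were not all whole (141.5 in WT replicate 1), a form that reads split between genes take. Those of Ccr9 (4188.5 in WT replicate 1), Ccr7 (4429.99 in IL-2-KO replicate 1) and Ccr4 (36.2 in WT replicate 1) were not all whole either. The part of split reads in any of these results was not tested. Ccr2 passed among libraries of over 20 M cells, at 1.98 (limma adjusted p = 0.0162), and not among those of under 2 M, at 2.98 (adjusted p = 0.0621).

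Ccr4 (Entrez 12773, GRCm38 chromosome 9, 114490316 to 114505476), the receptor gene for CCL17 and CCL22, was the lowest of the 6. It read 2.17, 1.011, 1.04 and 1.29 CPM in WT, resting on 36.2, 12, 18 and 21.45 recovered reads. In IL-2-KO it read 5.43, 5.97, 3.71 and 4.25 CPM, from 81, 99, 69 and 76 reads. The groups did not overlap. The mean rose from 1.38 ± 0.542 to 4.84 ± 1.04 CPM (SD, n = 4), a log2 change of 1.53 (95% confidence interval 1.009 to 2.04, limma adjusted p = 0.00155). IL-2-KO replicate 3, the library richest in CD4 and regulatory T cell markers, had the lowest Ccr4 of its group, and WT replicate 2 the lowest of WT. The summed level of these markers was also higher in the other IL-2-KO libraries than in the other WT ones. Most of that sum in IL-2-KO was 1 marker, Ctla4, at 62.4, 51.5 and 66.7 of 83.8, 77.3 and 82.6 CPM in replicates 1, 2 and 4. Cd4 read 2.48, 1.75 and 0.978 CPM in these libraries and 0.461 to 1.68 in the other WT ones. Of the 7 markers, all tested, 1 rose and 0 fell, with a median log2 change of 0.35. That is 14.3% higher and 0% lower, beside 11.1% and 8.03% of all genes. Ctla4, an inhibitory receptor gene of regulatory and activated T cells, rose 6.75-fold (limma adjusted p = 0.00447), and Foxp3, the defining factor of regulatory T cells, read 2.69 to 3.56 CPM in IL-2-KO and 3.92 to 4.49 in WT (adjusted p = 0.0750). The part of such cells in the Ccr4 result was not tested. Without both libraries that stood apart the Ccr4 log2 change was 1.54 (limma adjusted p = 0.00326), and among libraries of under 2 M cells it was 1.43 and did not pass (adjusted p = 0.0601).

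Of all genes tested, 24.2% had groups that did not overlap, with 12.9% higher and 11.2% lower in every IL-2-KO library. Among the 6 receptors the groups of 4 did not overlap, namely Cxcr3, Ccr2 and Ccr4 on the higher side and Ccr9 on the lower. In smaller sets of libraries fewer genes passed. Among libraries of over 20 M cells 3.33% of all genes passed (2.79% higher and 0.538% lower), and Ccr2, Ccr4 and Cxcr4 were the receptors that did. Among those of under 2 M cells 3.82% passed (3.08% higher and 0.746% lower), and Ccr9 was the receptor that did. With array weights 37.8% passed (19.4% higher and 18.4% lower), all 6 receptors among them. Without WT replicate 2 the share was 19% (10.9% higher and 8.14% lower), without IL-2-KO replicate 3 it was 15.7% (9.34% and 6.38%), and without both it was 18% (10.7% and 7.34%). Whether the change differed between the cell number classes was tested as an interaction, chosen after the values were seen. The log2 change of Cxcr4 was nearer to 0 in the libraries of under 2 M cells (-0.19) than in those of over 20 M (-2.47), a difference of 2.29 (95% confidence interval 0.74 to 3.83), with an unadjusted limma p of 0.00921 and an adjusted p of 1.000. Ccr9 was farther below 0 in the libraries of under 2 M cells, with a difference of -1.19 (95% confidence interval -1.88 to -0.50), with an unadjusted limma p of 0.00396 and an adjusted p of 1.000. After Benjamini-Hochberg adjustment over 11530 genes limma called 0 of them (0%). For the other 4 receptors the unadjusted limma p was 0.254 or higher. In the sample labels of WT replicate 1 and IL-2-KO replicates 1 and 2, a number directly follows the letters KH. The labels of the remaining libraries have a separator there. Cxcr4 read 26.2 to 81.9 CPM in the former and 107 to 267 in the latter. Among libraries of over 20 M cells only WT replicate 2 has the separator, and it held the highest Cxcr4 value. The part of the label form in the differences between the cell number classes was not tested.

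**Figure D2:**
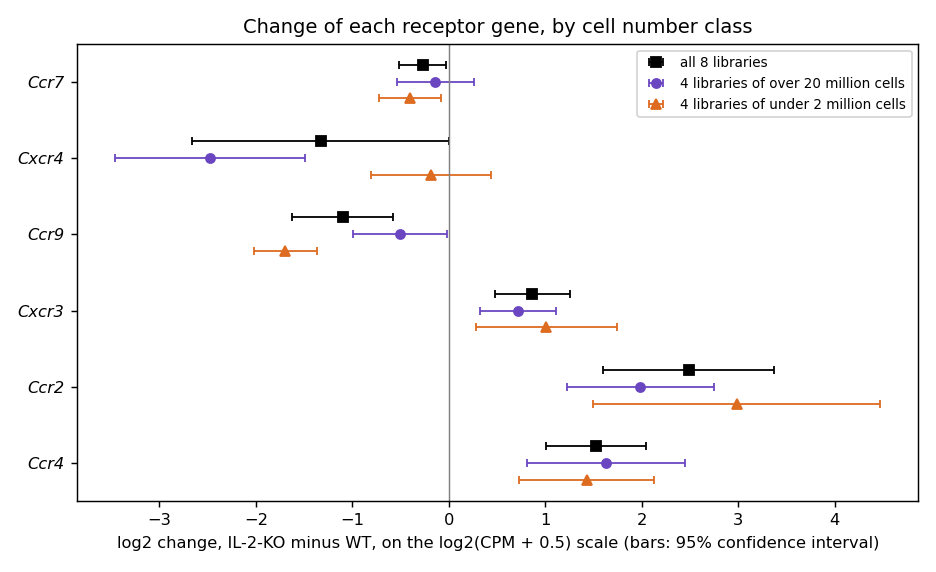
Log2 change of IL-2-KO minus WT, on the log2(CPM + 0.5) scale, of the 6 receptor genes by limma, with 95% confidence intervals, over all 8 libraries (black squares), the 4 of over 20 M cells (purple circles) and the 4 of under 2 M (orange triangles). Cxcr3, Ccr2 and Ccr4 lie above 0 in each, Ccr9 below 0, and Cxcr4 goes from -2.47 to -0.19 between the classes.

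Levels were compared between the receptors only per kilobase of annotated exon. In WT the order was Ccr7, at 179 ± 24.6 CPM per kilobase, Cxcr4 at 91.2 ± 42.8, Cxcr3 at 27.1 ± 6.74, Ccr9 at 22.4 ± 5.02, Ccr2 at 1.64 ± 0.792 and Ccr4 at 0.445 ± 0.175 (SD, n = 4). Neighbours Ccr7 and Cxcr4, and Cxcr3 and Ccr9, had overlapping ranges, and each pair kept its order in 3 of 4 libraries. In IL-2-KO the order was Ccr7 at 148 ± 12.1 CPM per kilobase, Cxcr3 at 49.0 ± 7.45, Cxcr4 at 45.9 ± 39.2, Ccr9 at 10.6 ± 3.33, Ccr2 at 9.40 ± 4.48 and Ccr4 at 1.56 ± 0.336. There the ranges of Cxcr3 and Cxcr4, and of Ccr9 and Ccr2, overlapped, with the order kept in 2 of 4 libraries each. The place of Ccr9 depends on the length used. Its exon union of 10260 bases is far longer than its longest transcript of 5197, and with the latter Ccr9 stood at 44.3 CPM per kilobase in WT, above Cxcr3, and at 21.0 in IL-2-KO.

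The make-up of the receptor transcripts held more of the inflammatory receptors in IL-2-KO. Together, Cxcr3, Ccr2 and Ccr4 made up 9.92, 8.53, 6.14 and 11.8% of the 6 receptors per kilobase in WT replicates 1 to 4. In IL-2-KO they made up 20.3, 25.1, 18.7 and 27.1%. The 2 groups did not overlap, and most of the share was Cxcr3, at 8.46 ± 2.19% in WT and 18.6 ± 2.43% in IL-2-KO (SD, n = 4). Ccr7 held a like share in both, 56.0 ± 9.82% and 56.9 ± 9.93%. With the longest transcript as length the inflammatory share was 8.60 ± 2.23% and 22.4 ± 3.95%. Ratios within a library do not depend on the scaling of libraries. Per kilobase, Cxcr3 stood at 0.101 to 0.194 of Ccr7 in WT and at 0.257 to 0.433 in IL-2-KO. The ratio of Ccr2 to Ccr9 was 0.0292 to 0.149 in WT and 0.379 to 1.84 in IL-2-KO. These shares and ratios are descriptions, with no test.

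**Figure D3:**
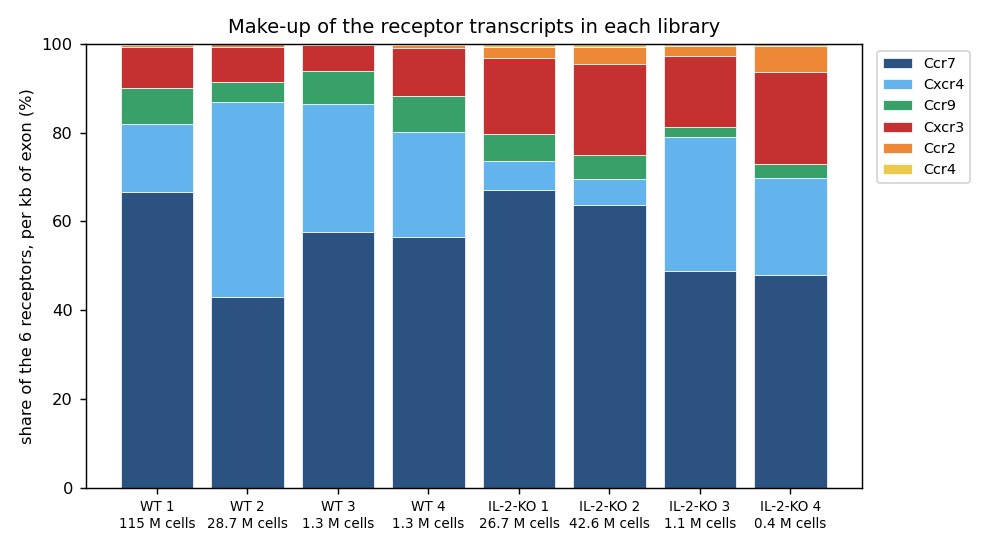
Share (%) of each of the 6 receptor genes in their summed level per kilobase of exon, one bar per library, with the sorted cell number (M, 1e6) under each bar. Cxcr3, Ccr2 and Ccr4 together take 6.14 to 11.8% in WT and 18.7 to 27.1% in IL-2-KO, and Ccr7 is the largest share in every library but WT replicate 2.

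Sequence upstream of a start of the 3 receptor genes that rose is shown since these genes moved in the same direction. Each run is the 250 bases upstream of the 1 start that the RefSeq promoter table (build GRCm38.p6) gives for the gene, 5′ to 3′ along the gene, with matches to the T-box motif TCACAC, the motif AGATAA of GATA factors and the AP-1 motif TGAGTCA on either strand in capitals.
Cxcr3 (chrX:101734148-101734397, minus strand): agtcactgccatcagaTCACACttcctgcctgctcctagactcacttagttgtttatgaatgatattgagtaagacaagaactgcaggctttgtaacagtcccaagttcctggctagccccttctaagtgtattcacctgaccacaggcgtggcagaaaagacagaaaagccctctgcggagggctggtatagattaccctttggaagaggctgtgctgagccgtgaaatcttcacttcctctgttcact
Ccr2 (chr9:124101933-124102182, plus strand): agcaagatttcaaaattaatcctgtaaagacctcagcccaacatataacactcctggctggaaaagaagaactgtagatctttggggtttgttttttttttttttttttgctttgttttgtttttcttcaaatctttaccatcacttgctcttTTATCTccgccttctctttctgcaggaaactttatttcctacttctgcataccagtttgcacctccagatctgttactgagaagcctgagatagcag
Ccr4 (chr9:114496545-114496794, minus strand): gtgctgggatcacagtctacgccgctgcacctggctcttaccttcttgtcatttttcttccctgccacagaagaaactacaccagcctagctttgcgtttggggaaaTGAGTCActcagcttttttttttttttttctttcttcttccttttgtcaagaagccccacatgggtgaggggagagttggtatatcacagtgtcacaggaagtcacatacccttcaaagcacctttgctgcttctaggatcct
In all, 7 motifs were searched on both strands in the windows of 5 receptors, all but Ccr7, and the letters found differed from gene to gene. TCACAC was in the Cxcr3 window alone, 234 bases before the start, and in 12.3% of all 32851 windows. AGATAA was in that of Ccr2 alone (9.99% of all windows, 97 bases before the start) and TGAGTCA in that of Ccr4 alone (4.46%, 143 bases before the start). GTAAACA (forkhead, 3.17% of all windows) and TTCNNNGAA (STAT, 7.02%) matched none of the 5. CACCC (Kruppel-like, 52.0%) was in the windows of Ccr9, Ccr4 and Cxcr4, and CANNTG (E-box, 66.2%) in all but that of Cxcr4. The windows of Ccr2 and Ccr4 lie inside the gene spans given above, which reach farther upstream than the starts used here. None of the matches in capitals shares a base with another motif searched, whereas the second E-box and the CACCC match of Ccr4 share 1 base. A match describes the letters only.

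Several of these genes lie in one cluster on chromosome 9. In chromosomal order the genes described there were Lztfl1, Ccr9, Fyco1, Xcr1 and Ccr2, between 123694404 and 124109140 (GRCm38). Genes of the cluster changed in opposite directions. Ccr9 and its neighbour Fyco1, an autophagosome transport gene, fell, and Fyco1 fell by 0.49 (log2; 139 ± 14.0 to 99.9 ± 19.9 CPM, limma adjusted p = 0.0331). Ccr2, farther along, rose. Xcr1, a receptor gene known from cross-presenting dendritic cells, read 2.96 ± 1.74 in WT and 2.46 ± 1.91 in IL-2-KO (limma adjusted p = 0.645). Cxcr6 (123806477 to 123811754) lies inside the annotated span of Fyco1. Of the 82 tested genes in a wider window of this chromosome (110554834 to 124627183), 8 rose and 8 fell, or 9.76% each, near the 11.1% and 8.03% of all genes.

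**Figure D4:**
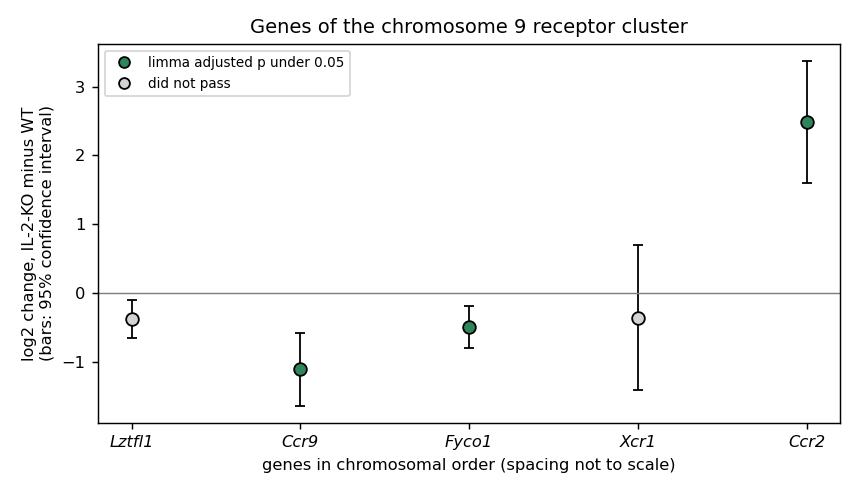
Log2 change of IL-2-KO minus WT by limma, with 95% confidence intervals, of 5 genes of the chromosome 9 cluster in chromosomal order (spacing not to scale), in green where the adjusted p was under 0.05. Ccr9 and Fyco1 lie below 0 and Ccr2 above it.

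Other chemokine receptor genes were low or unlisted, and 2 of the 6 tested rose. That is 33.3% higher and 0% lower, beside 11.1% and 8.03% of all genes. Cxcr5, the receptor gene of B cell follicles, read 12.9, 18.9, 10.3 and 17.9 CPM in WT and 26.7, 30.9, 31.8 and 39.99 in IL-2-KO, and rose 2.16-fold (limma adjusted p = 0.00346). Cx3cr1, a marker of effector cells and monocytes, read 0.136 to 1.49 CPM in WT and 0.837 to 3.27 in IL-2-KO (limma adjusted p = 0.0528). Ccr6 read 0.180 to 1.69 and 0.603 to 1.88 CPM (adjusted p = 0.113), and Gpr15, a large intestine homing receptor gene, 3.45 to 5.93 and 1.68 to 3.797 (adjusted p = 0.0908). Ccrl2, an atypical receptor gene, was listed but did not pass the filter. The other 15 of 22 genes in the list had no row. Without WT replicate 2, 4 of the 6 tested passed, all of them higher, where 10.9% of all genes were higher and 8.14% lower.

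Genes of the receptors' ligands were led by 2 libraries. Of 16 ligand genes 4 were listed and 3 tested, and limma called 0, with 0 at an unadjusted p under 0.05. Of all genes tested limma called 19.2%. Ccl22, a CCR4 ligand gene of dendritic cells, read 20.6 CPM in WT replicate 2 and 134 in IL-2-KO replicate 3, against 0.543 to 3.55 elsewhere. Cxcl9 read 2.28 and 53.9 CPM in those libraries and 0 to 2.08 in the others, and Cxcl16 read 10.5 and 21.99 against 0.447 to 1.00. These are the libraries that held the most monocyte, macrophage and dendritic cell transcript, and the part of that transcript was not tested. Ccl25, the CCR9 ligand gene, read 19.4 to 22.5 CPM in WT and 13.5 to 21.3 in IL-2-KO (limma adjusted p = 0.289).

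Of 39 tested genes of signalling downstream of the receptors, 2 rose, 4 fell and 33 did not pass, with a median log2 change of -0.0025 beside -0.0097 for all genes tested. These are 5.13% higher and 10.3% lower, beside 11.1% and 8.03% of all genes. Rgs1, which shortens G protein signals of chemokine receptors, rose 2.45-fold (31.4 ± 8.13 to 79.7 ± 29.4 CPM, limma adjusted p = 0.00726). Gng2, a G protein gamma subunit gene, rose 1.52-fold (78.7 ± 2.39 to 120 ± 11.3, adjusted p = 6.42e-04). Rgs14, another regulator of G protein signalling, fell by 0.39 (128 ± 5.20 to 97.7 ± 9.69, adjusted p = 0.00709). Arrb2, which encodes the beta-arrestin that uncouples receptors, fell by 0.40 (log2; 440.0 ± 22.3 to 336 ± 39.9 CPM, limma adjusted p = 0.0142).

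Of 29 tested transcription factors known to control homing receptors, 6 rose, 3 fell and 20 did not pass, with a median log2 change of 0.07. That is 20.7% higher and 10.3% lower, beside 11.1% and 8.03% of all genes. Tbx21, which encodes T-bet, an activator of Cxcr3, read 11.9, 21.997, 11.9 and 22.2 CPM in WT and 35.5, 45.6, 40.2 and 38.8 in IL-2-KO. It rose 2.41-fold with no overlap (limma adjusted p = 0.00285). Eomes, a related T-box factor gene, rose 2.18-fold (131 ± 20.6 to 292 ± 75.3 CPM, limma adjusted p = 0.00184), and Irf4 rose 2.88-fold. Lef1, a factor gene of naive cells, fell by 0.68 (log2; 382 ± 46.1 to 237 ± 18.8, limma adjusted p = 9.98e-04). Klf2 and Foxo1, which sustain lymph node homing receptors in naive cells, did not pass. Klf2 read 282 ± 43.7 CPM in WT and 209 ± 44.7 in IL-2-KO, a log2 change of -0.44 (limma adjusted p = 0.0725), and Foxo1 312 ± 24.4 and 252 ± 39.8, at -0.32 (adjusted p = 0.0767). Gata3, known to act on Ccr4 in helper T cells, stood at 38.5 ± 7.35 and 46.04 ± 10.8 CPM (adjusted p = 0.377).

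Among homing and retention partners, 5 of 18 tested members rose, 1 fell and 12 did not pass, with a median log2 change of 0.12. These shares are 27.8% and 5.56%, beside 11.1% and 8.03% of all genes. Itgb1, an integrin beta chain gene, rose 3.67-fold, Gcnt1, an enzyme gene for selectin ligands, 12.8-fold and Cd44, a hyaluronan receptor gene, 1.499-fold. S1pr1, the lymph node exit receptor gene, fell by 0.76 (log2; 505 ± 36.3 to 301 ± 39.5 CPM, limma adjusted p = 6.31e-04).

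**Figure D5:**
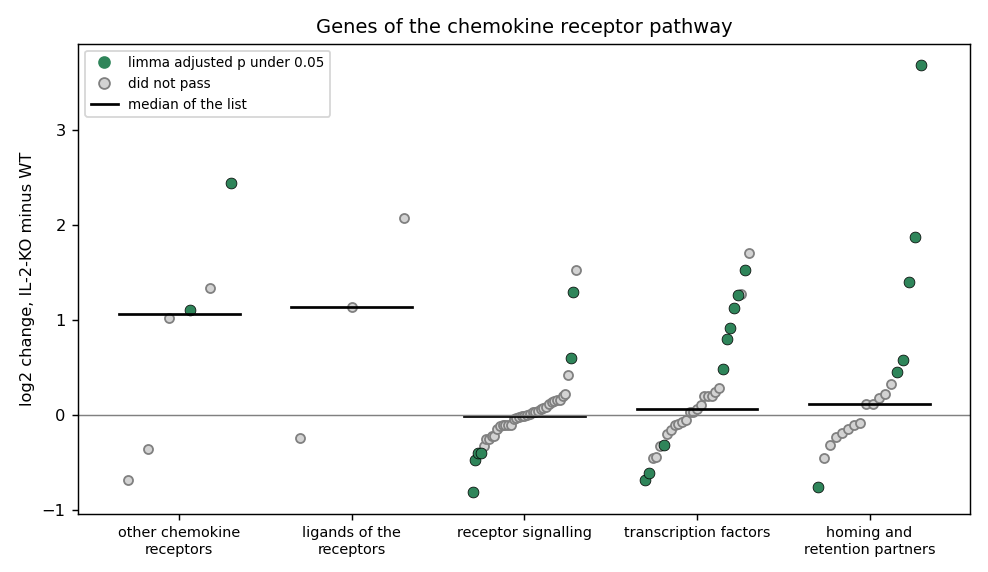
Log2 change of IL-2-KO minus WT, on the log2(CPM + 0.5) scale, for each tested member of 5 gene lists around the receptors, in green where the limma adjusted p was under 0.05, with each list's median drawn as a line. The signalling genes have their median at -0.0025.

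The genes most like each receptor were found by the root mean square (RMS) difference of centred log2(CPM + 0.5) profiles over the 8 libraries. For Ccr2 they included Ctla2a (RMS 0.31) and the lectin-like receptor gene Klrc3 (0.34). For Cxcr3 they were Xk (0.12), Dlg5 (0.14) and Ntng2 (0.15), and for Ccr9 Slc25a27 (0.13), the orphan receptor gene Gpr83 (0.19) and Vamp1 (0.20). Ccr4 lay near to Chaf1a (0.25) and Uhrf1 (0.25), genes of chromatin assembly and DNA methylation at replication. Ccr7 lay nearest to Rfesd (0.06), Tbc1d25 (0.07) and Mthfd2l (0.07). Cxcr4, the most scattered, had the most distant neighbours, Sytl5 (0.40), the glucocorticoid-induced gene Tsc22d3 (0.45) and the pro-apoptotic gene Bbc3 (0.50). Tsc22d3 read 64.2 and 46.4 CPM in the IL-2-KO libraries of over 20 M cells and 170.0 and 168 in those of under 2 M, against 203 to 374 in WT. With a pseudocount of 2, 1 of the 3 genes was kept for Ccr7 and 0 for Ccr4.

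Of the marker lists of other lymphocytes, 2 had higher sums in IL-2-KO with no overlap between groups, and that of B cells overlapped. The 4 listed of 10 natural killer markers (Klrb1c, Klre1, Txk and Eomes) summed to 428 to 449.7 CPM in WT and 466 to 753 in IL-2-KO. The 3 listed of 11 markers of gamma-delta, natural killer T and innate lymphoid cells summed to 32.6 to 73.6 and 100.1 to 108 CPM. Most of that sum was 1 gene, Cd163l1, at 30.8 to 71.8 CPM in WT and 95.6 to 105 in IL-2-KO. Cd163l1 rose 2.12-fold (limma adjusted p = 0.00483). Of the 2 tested members of that list 1 rose and 0 fell. That is 50% and 0%, beside 11.1% and 8.03% of all genes. For each of these lists the exact two-sided permutation p was 0.0286, the smallest that 70 assignments can give, and 0.114 after adjustment over 12 marker lists, so neither passed. Within the natural killer list Eomes and Klre1 rose, Klrb1c did not pass, and Txk read 303 ± 14.9 CPM in WT and 283 ± 48.95 in IL-2-KO (limma adjusted p = 0.527). Of its 4 tested members 50% were higher and 0% lower, beside 11.1% and 8.03% of all genes. Eomes is also counted among the transcription factors above. The mast cell and basophil marker Cpa3, the 1 listed of 5, read 7.09 to 8.71 in WT and 2.96 to 4.55 in IL-2-KO, with the same p. Ncr1, Trdc, Zbtb16 and Il17a, which define such lymphocytes, had no row. CD8 T cells can also express Txk, Eomes and Sox13, and the part of other lymphocytes in the receptor results was not tested.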

How the data were processed

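RNA of 8 sorted CD8 T cell samples (4 WT and 4 IL-2-KO) was turned into libraries with a kit that keeps strand, per the labels' protocols. For every gene and library, the deposited table gives a signal value that the authors' title calls TMM counts in CPM. Software named by the submitters' processing notes is limma 3.34.9, featureCounts and R 3.4.3, with the builds mm10 and GRCm38 and no roles; no aligner is named in the sources used here. Column sums ran from 988292 to 1022950, so the unit was taken as a TMM-scaled signal, not plain CPM, and the test planned for CPM was kept. Of values under 20, 100% were whole hundredths of a read and 54.6% to 65.0% whole reads (within 0.001), so no count test was run. A value of 1 stands for 11.9 to 18.6 counts.

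Entrez identifiers were matched to RefSeq symbols (11651 matched, 72 not). Values were tested as log2(value + 0.5) with limma 3.58.1 in R 4.3.3 (empirical Bayes with trend, Benjamini-Hochberg over all genes with at least 1 in at least 4 libraries), after a check on simulated data. Replicates are biological per the design text. Exon lengths came from the GENCODE annotation of GRCm38. The members, gene lists, motifs and naming rule were chosen with earlier results of these data known. The rule named the receptors, their relatives and ligands, a fixed panel, up to 4 genes of smallest adjusted p per list and the 3 nearest genes by RMS; marker lists and chromosome 9 neighbours are given mostly as sums and counts. Some genes that the rule names are not reported here. Alternatives were other pseudocounts, filters, scalings, array weights, a replicate block, and subsets of libraries.

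The other marker lists, with summed CPM in WT and IL-2-KO, were B cell (15.7 to 26.2 and 12.3 to 36.2), plasma cell (36.8 to 50.3 and 42.5 to 60.9), neutrophil (0.241 to 6.07 and 0.503 to 5.38), erythroid and platelet (21.4 to 102 and 14.5 to 45.8), stroma and endothelium (193 to 219 and 178 to 207) and thymocyte (37.6 to 44.6 and 33.5 to 45.0).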

Additional observations from a re-analysis of the deposited data

Results flagged for a closer look

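A value was marked where 1 of the 4 libraries of a group lay far from the other 3, judged by its gap to the nearest one over the group's range. Chance marks about 1 in 20 groups of values. Here 25 of 142 were marked, and in 23 of these the library was WT replicate 2 or IL-2-KO replicate 3.

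Among the receptors 1 was marked: Ccr9 read 153 CPM in WT replicate 2 and 251 to 263 in the other WT libraries. Its neighbour Fyco1 also read lowest there (118 against 144 to 147), as did Tbc1d25 (12.9 against 15.9 to 16.55).

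In WT replicate 2, high values were marked for the summed markers of monocytes, macrophages and dendritic cells (396), CD4 and regulatory T cells (103) and neutrophils (6.07), and for Cd4 (38.6), Ccr6 (1.69), Ccrl2 (3.96), Xcr1 (5.56), Ccl22 (20.6), Cxcl9 (2.28), Cxcl16 (10.5) and Cd44 (84.1 CPM). In IL-2-KO replicate 3 they were marked for the same 3 marker sums (1137, 249 and 5.38) and for Cd4 (45.5), Ccrl2 (10.5), Ccl22 (134), Cxcl9 (53.9), Cxcl16 (21.99) and Cd44 (139 CPM). Elsewhere, Ccr6 was low in IL-2-KO replicate 1 (0.603 against 1.73 to 1.88) and Gng2 in WT replicate 3 (75.1 against 79.4 to 80.1).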

How the results depend on the processing

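The 6 receptors kept their direction under all alternatives run (21 each, 20 for Ccr4, which a minimum of 5 CPM removes). Values that crossed the threshold are, on the log2 scale, Ccr9 at -0.50 and Cxcr3 at 0.72 with only the libraries of over 20 M (1e6) cells, and Ccr2 at 2.98, Ccr4 at 1.43 and Cxcr3 at 1.011 with only those of under 2 M, none of which passed. Ccr7 passed with array weights (-0.31), without WT replicate 2, and with neither this library nor IL-2-KO replicate 3 (-0.40), a setting chosen after the data were seen. Cxcr4 passed with array weights (-1.75), with libraries of over 20 M cells (-2.47) and without IL-2-KO replicate 3. Leaving out 1 library at a time gave 2.16 to 2.74 for Ccr2, 1.43 to 1.71 for Ccr4, 0.71 to 1.006 for Cxcr3, -1.28 to -0.92 for Ccr9, -0.38 to -0.21 for Ccr7 and -1.84 to -0.94 for Cxcr4. Beside 1285 higher and 926 lower genes, array weights gave 2240 and 2119, libraries of over 20 M cells 322 and 62, those of under 2 M 355 and 86, and leaving out 1 library 846 to 1295 and 439 to 938, with the fewest without WT replicate 3 (846 and 439); without WT replicates 1 and 4 in turn, 562 and 466 were lower. The share of higher genes, 58.1%, was 48.9% with quantile normalization. Over the 5 lists together, 15 genes were higher and 8 lower in the main test. These counts were 28 and 14 with array weights, and 13 to 20 and 5 to 10 with 1 library left out. They were 7 and 0 with libraries of over 20 M cells and 8 and 1 with those of under 2 M. Ccr9 per kilobase was 44.3 in WT and 21.0 in IL-2-KO with the longest transcript, and with a pseudocount of 2 the nearest genes kept were 1 of 3 for Ccr7 and 0 for Ccr4. The smaller subsets hold fewer samples; other causes were not tested. With the replicate number as a replicate block, 911 genes were higher and 486 lower and no receptor call changed. Same-numbered libraries correlated at -0.53 to 0.39, so the numbers were not taken to mark pairs. The highest correlation between the groups, 0.66, was that of WT replicate 2 with IL-2-KO replicate 3, the libraries that stood apart. No other pairing was tested.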
